A study of Mus musculus with 10 samples.

Results

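Mitochondrial ribosomal protein genes are the nuclear genes whose symbols begin with Mrpl or Mrps followed by a number. They were taken from the array rows whose annotation names exactly 1 gene, without pseudogenes and with the brightest row standing for a gene. This gave 74 genes, 46 named for the large subunit and 28 for the small subunit, out of 30142 genes with such a row. Each of the 74 had 1 row that names it alone, and all 74 passed the signal filter that left 17800 genes for the test. Their expression was measured in 4T1, a mouse cell line derived from a mammary carcinoma; 50000 cells were grown for 5 days in collagen gels. The gels held 2 mg collagen per mL (low density, LD, 5 arrays) or 3.5 mg per mL (high density, HD, 5 arrays), and the groups differed in no other labelled respect. No genetic change or drug is named for either group, and the whole study used this single line. Each array measured total RNA from 1 sample on an Affymetrix mouse transcriptome chip. The comparison asks how collagen density alters gene expression in these cells.

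Mitochondria keep a ribosome of their own, of bacterial ancestry, which translates the few messages encoded by mitochondrial DNA. Those messages specify core subunits of the respiratory complexes and of the ATP synthase. The ribosomal RNAs come from mitochondrial DNA, whereas every ribosomal protein is encoded in the nucleus, made in the cytosol and imported. Some of the proteins have bacterial homologues, and others exist only in mitochondria and replace or extend the RNA core. The small subunit reads the message, and the large subunit joins the amino acids and feeds the chain towards the inner membrane.

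Values are log2 RMA signals, so a difference of 1 is a doubling of the signal, and RMA compresses folds. Signals on the arrays were compared between groups for the same gene, never between genes. Precision is limited by the number of arrays. The labels do not tell whether replicate samples were separate cultures, so the p-values refer to sample-to-sample spread alone, and that spread may be technical. In bulk RNA, a change in the share of cells and a change in RNA per cell cannot be told apart. The median signal of the array's negative control rows was 5.61 to 5.75 on LD arrays and 5.26 to 5.58 on HD arrays, that of its background rows 3.40 to 3.54 and 3.58 to 3.72, and that of its positive control rows 9.20 to 9.23 and 9.24 to 9.35. All 3 kinds of control row thus separated the groups completely, the positive and background rows with HD above, as in most members, and the negative rows with HD below (exact permutation p = 0.0079 each, two-sided, the smallest that 5 against 5 arrays allow). Epithelial markers were measured well above these levels, Krt8 at 12.01 in LD and 12.04 in HD and Krt18 at 12.28 and 12.16. Of 8 epithelial markers, 5 fell in HD (19.5% of all genes tested did) and none rose (31.4% did). Their log2 changes were unequal, at -1.09 in Cldn4, -0.76 in Krt19, -0.60 in Epcam, -0.13 in Krt18 and -0.105 in Cdh1. The list means were 10.63 to 10.67 on LD arrays and 10.25 to 10.38 on HD arrays. Of the markers of other cells, 3 of 5 fibroblast genes, none of 4 endothelial genes and 2 of 5 leukocyte genes with a row passed the signal filter, and the leukocyte marker Ptprc did not (3.09 and 3.14). The leukocyte gene Cd68 fell by 0.74. Cd3e passed as higher, but its groups overlapped. Its mean was below the range of the negative control medians in LD (5.29) and within that range in HD (5.45). The part of these control and marker shifts in the results below was not tested, beyond the control-row scaling given with the alternatives.

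Mitochondrial ribosomal protein genes were higher in dense collagen almost throughout. With limma over all 17800 genes and Benjamini-Hochberg adjustment, 65 of the 74 rose in HD at an adjusted p under 0.05 and 1, Mrpl24, fell. The remaining 8 did not pass the test. Among all genes tested, 31.4% were called higher and 19.5% lower. The members' median log2 change was 0.25, against 0.06 for all genes tested, with the middle of the members between 0.16 and 0.37 (quartiles). All 5 HD values lay above all 5 LD values in 59 members, against 21.6% of all genes, and below them in Mrpl24 alone, against 15.1%. The changes were small as folds, since 26 members rose by at least 1.25-fold, against 7.37% of all genes, and 2 by at least 1.5-fold, against 0.775%. The typical SD between replicates was 0.051 in LD and 0.0905 in HD (medians over the members).

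**Figure D1:**
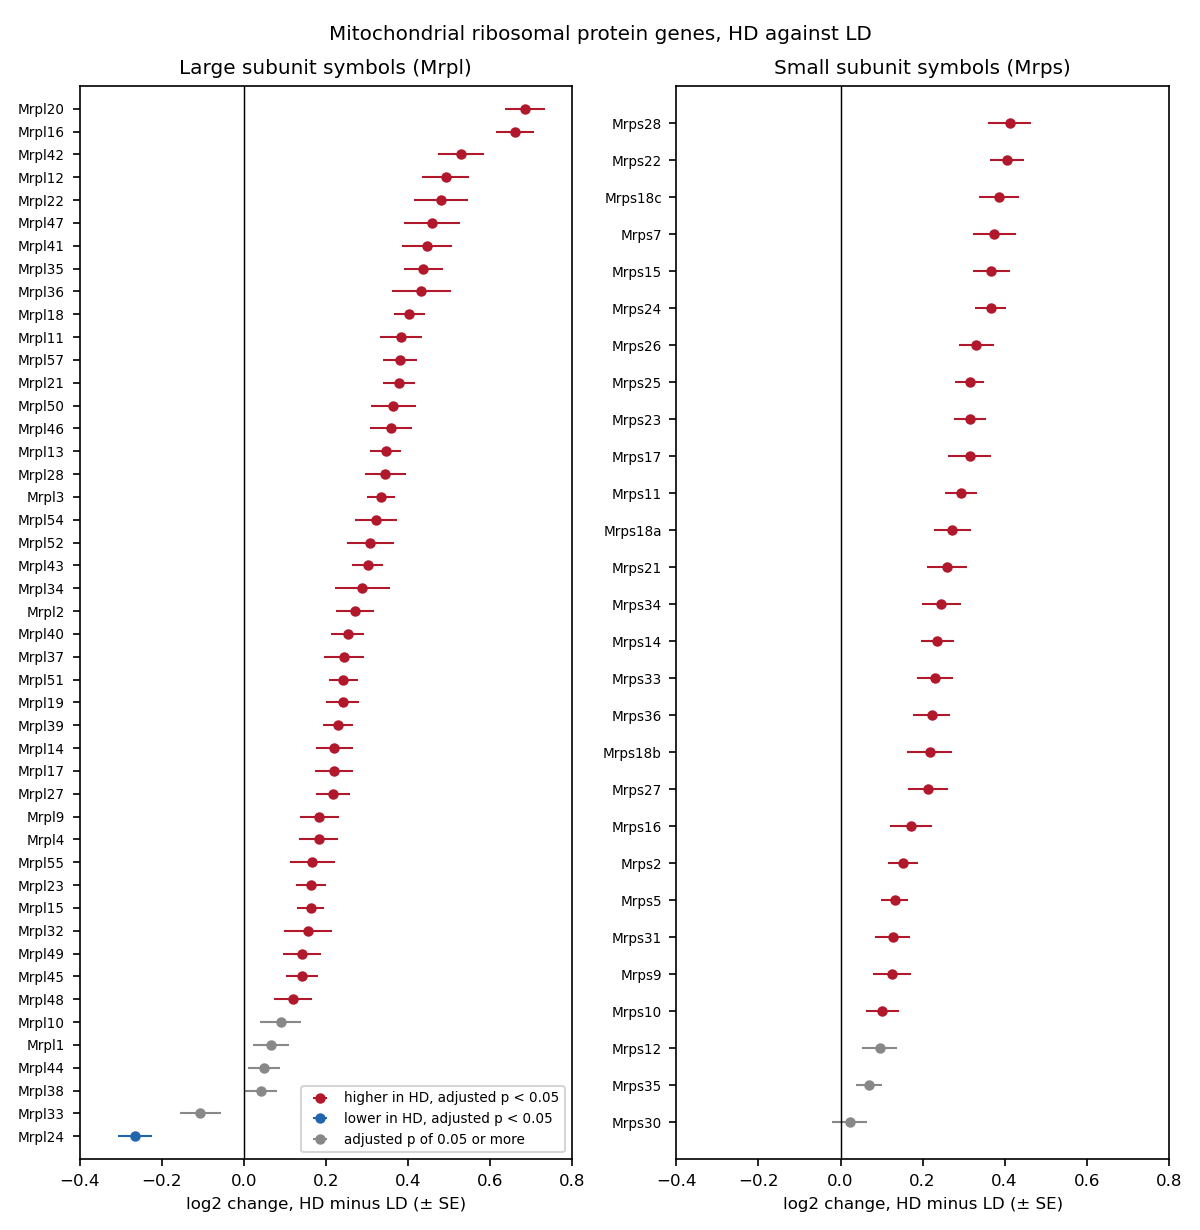
Log2 change of each of the 74 genes, HD minus LD, with its moderated standard error, for large subunit symbols (46 genes, left) and small subunit symbols (28 genes, right). Red points are called higher, the blue point lower and grey points did not pass. All but Mrpl33 and Mrpl24 lie to the right of 0, from 0.02 in Mrps30 to 0.68 in Mrpl20.

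The largest rises were in the large subunit. Mrpl20 encodes the mitochondrial form of bacterial L20, a protein that binds the large ribosomal RNA. Its log2 signals were 7.60, 7.75, 7.78, 7.59 and 7.74 on the LD arrays and 8.41, 8.48, 8.34, 8.31 and 8.34 on the HD arrays. The groups were far apart relative to their spread. Mrpl20 rose 1.61-fold (log2 change 0.68 ± 0.0483 SE, n = 5 per group, limma adjusted p = 1.6e-07). Mrpl16, the homologue of L16, which lies near the site of peptide bond formation, had signals of 7.94, 7.94, 7.91, 7.85 and 8.08 in LD. In HD they were 8.58, 8.69, 8.63, 8.53 and 8.61, again without overlap. It rose 1.58-fold (0.66 ± 0.0464 SE, limma adjusted p = 1.5e-07).

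Mrpl42 rose most among the proteins that bacteria lack. Its signals were 9.90 to 10.04 in LD and 10.39 to 10.70 in HD, a 1.44-fold difference (0.53 ± 0.0557 SE, limma adjusted p = 4.3e-06). The HD arrays were less even than the LD arrays, with replicate 2 the highest. Mrpl12 is the mitochondrial L7/L12 protein of the stalk, the arm that recruits translation factors. It had signals of 7.91, 7.86, 7.90, 7.84 and 8.05 in LD and of 8.36, 8.61, 8.38, 8.36 and 8.32 in HD (mean 7.91 ± 0.0833 SD and 8.40 ± 0.115 SD, n = 5). HD replicate 2 stood above the other HD arrays, and all of them lay above LD. Mrpl12 rose 1.41-fold (limma adjusted p = 9.3e-06).

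Next came 6 further large subunit genes with rises of 0.40 to 0.48 on the log2 scale. Mrpl22 (0.48) and Mrpl47 (0.46) encode the homologues of L22 and L29, which sit around the tunnel where the new chain leaves. Mrpl35 (0.44), Mrpl36 (0.43) and Mrpl18 (0.40) encode the homologues of L35, L36 and L18, and L18 lies in the central protuberance at the top of the subunit. Mrpl41, specific to mitochondria, rose by 0.45, from 5.57 to 5.74 in LD to 5.93 to 6.26 in HD. Its LD signals were about as bright as the median negative control row of the LD arrays (5.61 to 5.75), which limits its fold. In none of these 6 genes did the groups overlap, and limma adjusted p ran from 1.7e-06 (Mrpl18) to 2.1e-04 (Mrpl36).

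In the small subunit the leading genes rose less than the leading genes of the large subunit. Mrps28, the protein related to bacterial S1, was 7.24, 7.32, 7.24, 7.33 and 7.35 in LD and 7.60, 7.86, 7.75, 7.74 and 7.59 in HD. It was 1.33-fold higher (0.41 ± 0.0524 SE, limma adjusted p = 2.1e-05). Mrps22, found only in mitochondrial ribosomes, was 7.92, 8.02, 7.96, 7.90 and 8.06 in LD and 8.40, 8.40, 8.33, 8.32 and 8.43 in HD. It was 1.33-fold higher as well (0.41 ± 0.0411 SE, limma adjusted p = 3.1e-06). Neither gene had a value shared between the groups.

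**Figure D2:**
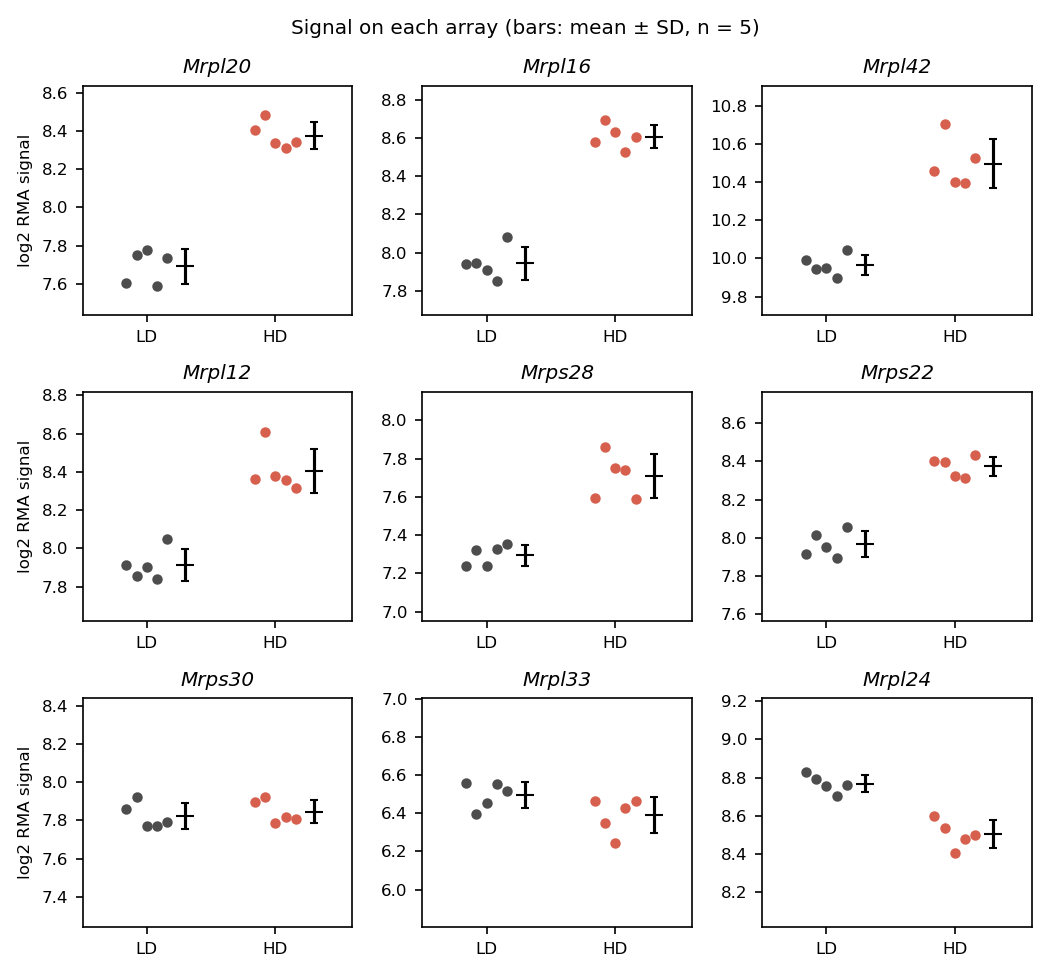
Log2 RMA signal of 9 genes on each of the 5 LD and 5 HD arrays (points, in order of replicate number), with mean and SD beside them; each panel spans 1.2 log2 units, and its y axis does not start at 0. Mrpl20, Mrpl16, Mrpl42, Mrpl12, Mrps28 and Mrps22 are separated with HD above, Mrpl24 with HD below, and Mrps30 and Mrpl33 overlap.

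Mrpl24 moved against the rest. It encodes the homologue of L24, at the rim of the exit tunnel like Mrpl22 and Mrpl47. Its signals were 8.83, 8.79, 8.76, 8.71 and 8.76 in LD and 8.60, 8.54, 8.40, 8.48 and 8.50 in HD. Every HD array was below every LD array. Mrpl24 was 1.20-fold lower in HD (-0.26 ± 0.0416 SE, limma adjusted p = 1.3e-04). In RefSeq the span of Mrpl24 overlaps that of Rrnad1, which also fell, by 0.21 (limma adjusted p = 1.4e-04), and what the shared stretch adds to either row was not tested. The proteins known to ring the exit tunnel, a set put together after the values were seen, thus ran from -0.26 in Mrpl24 through 0.14 in Mrpl45, 0.16 in Mrpl23 and 0.22 in Mrpl17 to 0.46 in Mrpl47 and 0.48 in Mrpl22. In the stalk, also chosen afterwards, Mrpl12 rose by 0.49 and Mrpl11 by 0.38, while Mrpl10, which anchors the L12 copies, differed by 0.09 and did not pass (limma adjusted p = 0.15).

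Mrpl33, the homologue of the small protein L33, was the other gene with a negative difference. Its signals of 6.40 to 6.56 in LD and 6.24 to 6.47 in HD overlapped (-0.11 ± 0.0496 SE, limma adjusted p = 0.090). Its sign depended on the scaling, at 0.068 with control-row scaling of the arrays, and it passed as lower with a replicate block (adjusted p = 0.047). The annotation ties its row to several gene IDs of the same name, so its value is uncertain. The other genes that did not pass, named after their values were seen, were Mrps12, Mrpl10, Mrps35, Mrpl1, Mrpl44, Mrpl38 and Mrps30. They differed by 0.02 to 0.10. Mrps12, the homologue of S12 at the decoding centre, was closest to the threshold among them by adjusted p (0.082), followed by Mrps35 (0.084). In Mrps35 all HD values (6.97 to 7.04) lay above all LD values (6.90 to 6.96) even so.

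Some symbols do not match the place of the protein. Mrps30 and Mrps18a were named for the small subunit but are found in the large subunit. Mrps30 was 7.86, 7.92, 7.77, 7.77 and 7.79 in LD and 7.90, 7.92, 7.79, 7.82 and 7.81 in HD, with overlap throughout. Its difference was 0.02 ± 0.0424 SE (limma adjusted p = 0.68). Mrps18a, Mrps18b and Mrps18c are related proteins of the S18 family that occupy different places in the ribosome. Mrps18c, which takes the place of bacterial S18, rose by 0.39 (6.71 to 6.87 in LD, 7.11 to 7.34 in HD). Mrps18a rose by 0.27 (7.63 to 7.73, then 7.87 to 8.10) and Mrps18b, a small subunit protein specific to mitochondria, by 0.22 (8.53 to 8.70, then 8.75 to 9.04). Limma adjusted p were 1.9e-05, 2.1e-04 and 0.0048. The 3 rises were not tested against each other. Mrps36 carries a ribosomal name but is now known as a component of the oxoglutarate dehydrogenase complex. It was kept among the small subunit symbols and rose by 0.22 (6.79 to 6.86 in LD, 6.92 to 7.14 in HD, limma adjusted p = 9.7e-04).

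Large and small subunit genes had medians close to each other, and the difference was not tested. The shares over all genes tested were 31.4% called higher, 19.5% called lower and 7.37% called at least 1.25-fold higher. Among 46 large subunit symbols 40 were higher in HD and 1 lower, the median log2 change being 0.26, with quartiles of 0.16 and 0.38. Among 28 small subunit symbols 25 were higher and none lower, the median being 0.24, with quartiles of 0.15 and 0.32. The order of the medians turned after quantile normalization (0.29 and 0.30). The full range was wider in the large subunit (-0.26 to 0.68) than in the small (0.02 to 0.41). At least 1.25-fold rises were seen in 19 large and 7 small subunit genes. With Mrps30 and Mrps18a counted by their place, 41 of 48 large and 24 of 26 small subunit genes rose, with the medians again at 0.26 and 0.24. Mrps36 was left among the 26, and among the 24 that rose, by its symbol alone.

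Relative to each gene's LD mean, large subunit genes averaged 0.27, 0.38, 0.24, 0.22 and 0.25 on the HD arrays, and small subunit genes 0.25, 0.32, 0.21, 0.21 and 0.21. On the LD arrays the means of both subunits stayed within -0.03 to 0.04. For both subunits, every HD array lay above every LD array, and HD replicate 2 was the highest. Large exceeded small on every HD array, by 0.016 to 0.061, while on LD arrays the difference was -0.014 to 0.011. No p is given for these scores, since the genes of a ribosome are not replicates. HD replicate 2 gave the highest HD value for 53 of the 74 genes, whereas it did so for 30.9% of all genes tested. LD replicate 5 gave the highest LD value for 39 genes, against 20.8% of all genes. Without HD replicate 2 the members' median was 0.23, with 62 genes higher and 1 lower. In that fit 30.7% of all genes were called higher.

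**Figure D3:**
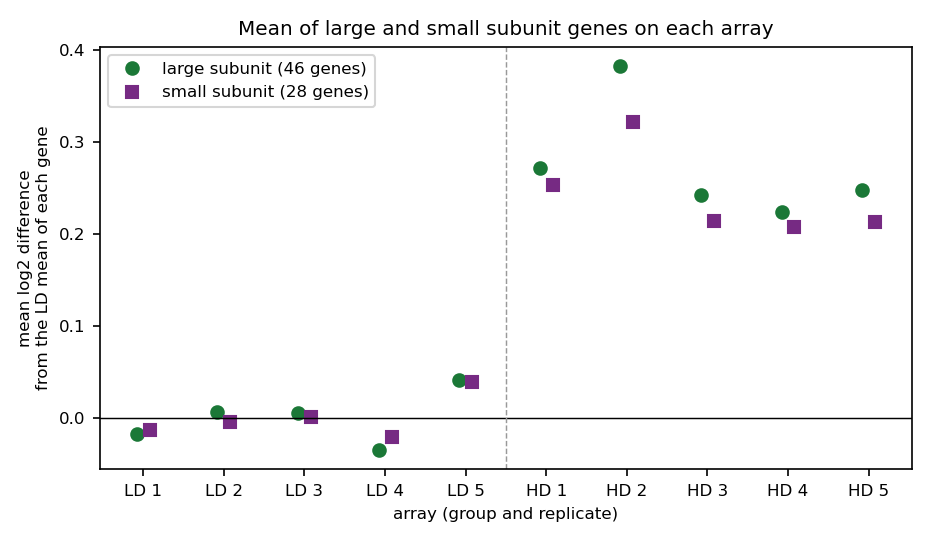
Mean log2 difference of large (46 genes, circles) and small (28 genes, squares) subunit genes from each gene's LD mean, on each array. The LD arrays lie between -0.03 and 0.04 and the HD arrays between 0.21 and 0.38, with HD replicate 2 the highest.

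Medians also lay close together by ancestry, again without a test of the difference. All genes tested stood at 31.4% called higher and 19.5% lower, with a median of 0.055. Of 44 members with a bacterial homologue, 39 were higher and 1 lower (median 0.27). Of 27 members specific to mitochondria, 24 were higher and none lower (median 0.25). By subunit, 25 of 29 large and 14 of 15 small subunit genes with a bacterial homologue rose (medians 0.27 and 0.26), as did 15 of 17 large and 9 of 10 small subunit genes without one (0.25 and 0.24).

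Several proteins of the mitochondrial ribosome carry other names, and 4 listed ones had a tested row. All 4 rose, against 31.4% of all genes, with a median of 0.29. Chchd1, a small subunit protein, had signals of 7.19, 7.14, 7.14, 7.13 and 7.17 in LD and of 7.58, 7.82, 7.68, 7.55 and 7.68 in HD, the largest rise among them (1.42-fold, limma adjusted p = 1.6e-06). Gadd45gip1 of the large subunit rose by 0.29, but its groups overlapped and with array weights its adjusted p was 0.071. Ptcd3 rose by 0.29 and Dap3 by 0.18, and both belong to the small subunit. Mrpl58, a release factor built into the large subunit and listed on the array under its older name Ict1, rose by 0.25 (limma adjusted p = 2.0e-04). In rows left out because they name several genes, the row of Mrpl30 and Gm6238 averaged 7.34 ± 0.0663 on LD and 7.57 ± 0.111 on HD arrays (SD, n = 5 each). The row of Mrps6 and Slc5a3 was 9.05 ± 0.0789 and 9.27 ± 0.114, and that of Mrpl53 and Ccdc142 was 7.15 ± 0.0438 and 7.19 ± 0.036. A further row, shared by Mrps18b and Gm16279, was 5.42 ± 0.0601 and 5.46 ± 0.0712, a difference of 0.04 against 0.22 in the row of Mrps18b alone. Groups overlapped in all 4 of these rows, which were not tested.

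Pseudogene copies gave signal too. Rows named for Mrpl23-ps1, Mrpl48-ps, Mrps36-ps1 and Mrps36-ps2 differed by 0.19, 0.13, 0.36 and 0.42, without a test. The rows of Mrpl23, Mrpl48 and Mrps36 rose by 0.16, 0.12 and 0.22. On near-identical sequence the signals of a gene and its copy cannot be told apart, so the values of Mrpl23, Mrpl48 and Mrps36 are uncertain. By RefSeq spans, 23 of the 74 genes overlap another gene. Among the 51 that overlap none, 45 rose (31.4% of all genes did). Their median was 0.26, against 0.24 for the 23.

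Of 26 listed genes of mitochondrial ribosome assembly and ribosomal RNA modification, 9 rose (34.6%, against 31.4% of all genes), 3 fell (19.5% of all genes did) and 14 did not pass. Their median of 0.069 was near that of all genes (0.055), so the list as a whole lay close to the background. Noa1, a GTPase of small subunit assembly, had signals of 7.86, 7.91, 7.88, 7.82 and 7.99 in LD and of 8.35, 8.41, 8.40, 8.31 and 8.50 in HD (1.42-fold, limma adjusted p = 8.5e-07). Fastkd2, an RNA-binding protein needed for the large ribosomal RNA, rose by 0.38 (limma adjusted p = 4.4e-05). Nsun4, a methyltransferase for the small ribosomal RNA, and Mterf4, its partner in assembly, both fell. Nsun4 had signals of 7.03, 6.94, 6.89, 6.94 and 7.06 in LD and of 6.68, 6.68, 6.51, 6.63 and 6.61 in HD (1.28-fold lower, limma adjusted p = 2.0e-05). Mterf4 fell by 0.22 (limma adjusted p = 2.3e-04), a call lost after control-row scaling (-0.08, adjusted p = 0.12). Rpusd4, a pseudouridine synthase, fell by 0.12 with overlapping groups (limma adjusted p = 0.037). With 1 array left out it passed only where that array was LD replicate 4 (adjusted p = 0.042) or HD replicate 2 (0.0012), and reached 0.090 otherwise. The Rpusd4 call was also lost with the replicate block (0.053), after quantile normalization (0.26) and control-row scaling (0.32). The same held for median centring (0.061), no filter on dim rows (0.065) and ordinary t statistics (0.056).

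Of 15 tested translation factors and partners, 7 were higher (46.7%, against 31.4% of all genes) and 4 lower (19.5% of all genes were), with a median of 0.09 against 0.055. The elongation factors Gfm1 (0.45) and Tufm (0.28) rose, as did Slirp (0.46) and Lrpprc (0.22), partners that stabilise mitochondrial messages. Gfm1 was 8.47, 8.60, 8.53, 8.48 and 8.64 in LD and 9.01, 8.94, 9.06, 8.95 and 8.99 in HD (limma adjusted p = 1.7e-06). Slirp was 8.15 to 8.35 in LD and 8.58 to 8.87 in HD (limma adjusted p = 1.1e-05). On the other side, Oxa1l, the insertase that receives new chains at the inner membrane, was 10.33, 10.32, 10.23, 10.21 and 10.22 in LD and 9.94, 10.03, 9.87, 9.85 and 9.85 in HD. It was 1.28-fold lower (-0.36 ± 0.0442 SE, limma adjusted p = 1.8e-05). Gfm2, which acts in ribosome recycling, fell by 0.26, Guf1 by 0.21 and the initiation factor Mtif2 by 0.13 (limma adjusted p = 8.8e-05, 0.0031 and 0.014). The Mtif2 call was lost after quantile normalization and control-row scaling (adjusted p = 0.12 and 0.15). Tufm and Lrpprc were named after their values were seen.

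Genes of mitochondrial transcription and DNA replication rose in 6 of 10 cases, against 31.4% of all genes, and fell in 1, against 19.5%, with a median of 0.14. Tfb2m, a transcription initiation factor, rose by 0.32 and Polg, the catalytic subunit of the DNA polymerase, by 0.18 (limma adjusted p = 3.6e-04 and 7.8e-04). Polg2, its accessory subunit, fell by 0.34 (limma adjusted p = 7.4e-04). Of the 13 protein messages of mitochondrial DNA, which this ribosome translates, 5 had a tested row under the listed names, with a median of -0.07. ND3 rose by 0.18 (limma adjusted p = 0.0032), but was -0.15 after control-row scaling (adjusted p = 0.049). ND6 fell by 0.15 with overlapping groups (limma adjusted p = 0.041), a call that held without LD replicate 5 (adjusted p = 0.0080) or HD replicate 5 (0.023) and was lost without any other array (up to 0.099). It was also lost with the replicate block (0.077), with ordinary t statistics (0.085) and with no filter on dim rows (0.071).

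For scale, the cytosolic ribosomal proteins had 22 of 40 genes higher (55%) and none lower (median 0.11). Complex I had 30 of 36 subunit genes higher (83.3%) and 1 lower (median 0.29). Among all genes tested, 31.4% were higher and 19.5% lower (median 0.055), so both groups lay above that background in the share called higher. The mitochondrial ribosomal protein genes thus lay nearer to complex I than to the cytosolic ribosome by median and count. These differences between gene groups were not tested, since genes are not replicates.

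**Figure D4:**
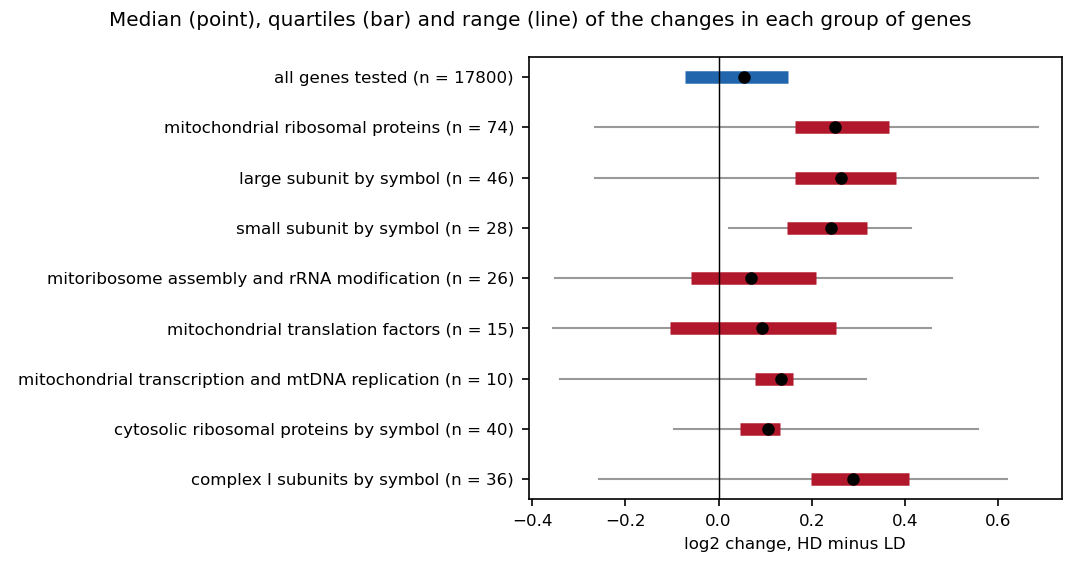
Median (point), quartiles (thick bar) and full range (thin line, not drawn for all genes) of the log2 change, HD minus LD, in each group of genes; n is the number of genes tested. Mitochondrial ribosomal proteins have a median of 0.25, their assembly factors 0.07, translation factors 0.09, cytosolic ribosomal proteins 0.11 and complex I subunits 0.29.

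The members' promoters were read from RefSeq's mouse table (GRCm38.p6), as 300 bases from 250 before to 50 after the annotated start. It held 65 of the 74 genes, without Mrpl13, Mrpl15, Mrpl19, Mrpl38, Mrpl4, Mrpl54, Mrps28, Mrps34 and Mrps35. The first listed start stood for a gene. The windows were searched on both strands for CACGTG (E-box), CCGGAAG (a form of the ETS factor site), GCGCATG (part of the NRF1 site) and AAGATGG (part of the YY1 site), with no motif contained in another. Other forms of these sites were not searched for. CCGGAAG was found in 23 of 65 members (35.4%), against 9.12% of 27025 promoters and 16.5% of the 11124 promoters of tested genes. AAGATGG was found in 13 members (20.0%), against 6.48% and 7.06%. This run contains the letters of a start codon (ATG), and matches after the annotated start were not counted apart. GCGCATG was found in 8 (12.3%), against 4.04% and 6.43%, and CACGTG in 5 (7.69%), against 7.24% and 9.71%. At least 1 motif was present in 37 members (56.9%), against 23.4% of all promoters and 33.6% of those of tested genes. Members with CCGGAAG had a median log2 change of 0.29, and those without it 0.24. For AAGATGG the medians were 0.29 and 0.25, for GCGCATG 0.20 and 0.29 and for CACGTG 0.39 and 0.25. The medians with and without a motif were not tested against each other. A match is a run of letters, not a site shown to be bound, and its part in the rises was not tested.

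The promoters of the 3 genes that rose most and of Mrpl24, which fell, are shown 5′ to 3′ on the strand of the gene, with matches to the 4 motifs in capitals. Mrpl22, chosen after the matches were seen, is added because it holds both the ETS and the NRF1 letters.
Mrpl20, chr4:155802628-155802927, plus strand: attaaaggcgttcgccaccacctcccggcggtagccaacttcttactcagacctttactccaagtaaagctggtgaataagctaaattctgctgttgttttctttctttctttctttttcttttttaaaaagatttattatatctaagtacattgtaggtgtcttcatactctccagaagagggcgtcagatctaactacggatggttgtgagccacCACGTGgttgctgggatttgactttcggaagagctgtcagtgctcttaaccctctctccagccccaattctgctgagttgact
Mrpl16, chr19:11770165-11770464, plus strand: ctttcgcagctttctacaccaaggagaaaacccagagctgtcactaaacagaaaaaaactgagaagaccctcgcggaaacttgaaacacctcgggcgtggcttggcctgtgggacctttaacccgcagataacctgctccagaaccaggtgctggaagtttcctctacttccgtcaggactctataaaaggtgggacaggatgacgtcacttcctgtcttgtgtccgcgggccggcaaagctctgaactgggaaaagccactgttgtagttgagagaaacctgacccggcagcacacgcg
Mrpl42, chr10:95501900-95502199, minus strand: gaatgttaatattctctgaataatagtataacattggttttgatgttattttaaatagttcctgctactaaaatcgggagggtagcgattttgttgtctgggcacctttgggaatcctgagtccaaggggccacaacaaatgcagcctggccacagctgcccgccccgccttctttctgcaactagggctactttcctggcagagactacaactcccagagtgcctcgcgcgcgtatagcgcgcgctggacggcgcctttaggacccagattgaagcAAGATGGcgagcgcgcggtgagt
Mrpl24, chr3:87919294-87919593, plus strand: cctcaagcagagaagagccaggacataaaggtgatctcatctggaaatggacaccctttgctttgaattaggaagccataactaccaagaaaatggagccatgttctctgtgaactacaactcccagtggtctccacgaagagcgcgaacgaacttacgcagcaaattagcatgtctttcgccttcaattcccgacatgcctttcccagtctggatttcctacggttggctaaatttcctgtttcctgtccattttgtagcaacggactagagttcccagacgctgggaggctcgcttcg
Mrpl22, chr11:58171414-58171713, plus strand: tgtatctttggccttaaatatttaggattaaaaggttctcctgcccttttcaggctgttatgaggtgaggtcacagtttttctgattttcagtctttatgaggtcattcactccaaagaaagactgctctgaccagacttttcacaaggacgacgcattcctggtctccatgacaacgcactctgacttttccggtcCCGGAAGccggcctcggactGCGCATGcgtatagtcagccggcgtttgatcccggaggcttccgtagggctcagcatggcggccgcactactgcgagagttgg
Mrpl20 holds CACGTG beginning 33 bases before the start, and Mrpl42 holds AAGATGG beginning at base 28 after it. In Mrpl22, CCGGAAG begins 53 and GCGCATG 33 bases before the start. In Mrpl16, 1.58-fold higher in HD, and in Mrpl24, 1.20-fold lower, none of the 4 runs is present in this window.

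Some of these genes have a neighbour that starts upstream on the opposite strand. In the same table, 24 of the 65 members had such a start within 1000 bases, at distances of 8 to 935 bases. The share among all promoters was not computed, so the count does not show a trait of these genes. Of these neighbours, 21 were tested. Of the 21, 11 rose (31.4% of all genes did), 3 fell (19.5% of all genes did) and 7 did not pass. Mrpl46 and Mrps11 count among the 11. The median of the 21 was 0.11, against 0.055 for all genes, while the 21 members beside them had a median of 0.29. Mrpl46 and Mrps11 start 42 bases apart and are each other's neighbour, with rises of 0.36 and 0.29. Mrpl47 (0.46) starts 308 bases from the complex I gene Ndufb5, which rose by 0.39, and Mrpl32 (0.16) starts 205 bases from the proteasome gene Psma2, which rose by 0.35. Mrpl57 (0.38) and the mitotic gene Ska3 (0.29), 76 bases apart, rose as well. Against that, Mrpl2 (0.27) faces Klc4, a kinesin light chain, which fell by 0.13, and Mrps5 (0.13) faces Zfp661, which fell by 0.21. Mrpl41 (0.45) faces Pnpla7, 935 bases away, which fell by 0.19. Mrpl21 (0.38), Mrps7 (0.37) and Mrpl50 (0.36) face neighbours among the 7 that did not pass. These pairs were named after their values were seen.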

How the data were processed

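Total RNA of 10 samples (5 LD, 5 HD) was hybridised to 1-colour Affymetrix arrays. Per the submitters' processing notes, RMA was used, and the deposited values are RMA signals on the log2 scale, 1 per row and array. Version, annotation and build of RMA: not given in the sources used here. Of 72688 rows, 30604 name 1 gene by the platform annotation. Gene IDs were matched to RefSeq (GRCm38.p6), which updated 827 symbols. The row with the highest mean stood for a gene, and genes entered the test where this mean was above the median over all rows (log2 5.24). This floor lay below the median negative control row of every array (5.61 to 5.75 on LD, 5.26 to 5.58 on HD). Passing it therefore does not show signal above the control rows.

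The groups were compared with lmFit and eBayes (limma 3.58.1, R 4.3.3; two-sided, without covariates), with Benjamini-Hochberg adjustment over 17800 genes and a threshold of 0.05. The fit was tested on simulated data. Members, gene lists, motifs and tests were chosen with earlier results of these data known. The rule for named genes took the 12 largest rises, members called lower or with a negative difference, the largest rise of each class, the Mrps18 family and Mrps30, and of each list the 3 largest called changes and calls against its median. Alternatives covered scaling, filters, row choice, variance models, a replicate block and leaving out each array. No scanner file or scan date was used.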

Additional observations from a re-analysis of the deposited data

Results flagged for a closer look

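Among 80 groups of 5 arrays, 3 had an array whose distance from its nearest neighbour took up over 0.71 of the group's range, fewer than the 1 in 20 that chance gives on average. Mrpl12 was 8.61 on HD replicate 2 and 8.32 to 8.38 on the other HD arrays. Rpusd4 was 7.80 on HD replicate 2 and 7.55 to 7.61 on the others. Mtif2 was 7.74 on LD replicate 3 and 7.82 to 7.85 on the other LD arrays (7.815 the lowest of them).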

How the results depend on the processing

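Over 20 alternatives the number of mitochondrial ribosomal protein genes called higher was 60 to 69, and their median log2 change 0.23 to 0.30. The share of all genes called higher ran from 18.5% with no filter on dim rows to 49.3% with control-row scaling, against 31.4% in the main fit. It was 42.9% after quantile normalization and 38.5% with the stricter filter. Of the 65 genes called higher, 58 passed under every alternative but the stricter filter, which tests 68 members. The other 7 were Mrpl32, Mrpl48, Mrpl49, Mrpl55, Mrps9, Mrps10 and Mrps31. How many of all genes called higher held in the same way was not counted, so the 58 do not show a trait of these genes. Quantile normalization and control-row scaling raised the share of higher genes among all calls from 61.7% to 72.1% each. The median of all genes became 0.09 and 0.13 there, and that of the members 0.30 under both. Leaving out 1 array gave 60 to 65 of these genes higher and 1 lower, with 26.4% to 31.5% of all genes called higher. Mrpl33 turned to 0.068 and ND3 to -0.15 under control-row scaling, and the cause was not tested. With replicate number as a block, 64 genes were higher and 2 lower, Mrpl33 being added. In that fit 31.8% of all genes were called higher. Same-numbered arrays did not deviate together (correlations of 0.19, -0.091, -0.036, 0.22 and -0.025), and not every array correlated best with its own number, so the numbers were not taken as pairs. Chip batches that follow the groups could not be looked for.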
